A study of Mus musculus with 6 samples.

Results

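The genes described here encode the calcium release channels of the endoplasmic reticulum (ER) and the pumps that refill it. They are the ryanodine receptors Ryr1, Ryr2 and Ryr3, the inositol trisphosphate (IP3) receptors Itpr1, Itpr2 and Itpr3, and the SERCA pumps Atp2a2 and Atp2a3. These 8 of the 44788 genes in the table were chosen by symbol, with the genotype difference of their counts in the same 6 ovaries already known. That difference is therefore given as a description, with no p value for any of the 8. The samples were whole ovaries of 8-week-old C57BL/6 J mice, 3 wild type (Bnc1+/+, replicates 1, 4 and 7) and 3 homozygous for a truncated Bnc1 (Bnc1tr/tr, replicates 1, 2 and 3). The truncating allele is a small frameshift deletion in exon 4, modelled on a human BNC1 mutation found in primary ovarian insufficiency; it is a germline allele, present in all tissues, and the mice came from crosses of heterozygotes, with littermates compared. Total RNA was sequenced as 1 single-end Ion Proton library per ovary sample, and the comparison asks how ovarian transcripts differ between the genotypes.

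The libraries held 25247770 to 34406296 counts, with TMM factors of 0.958 to 0.978 in Bnc1+/+ and 1.03 to 1.04 in Bnc1tr/tr ovaries. Expression is given as CPM, the TMM-normalized counts scaled to library size by edgeR, and fold changes are those of Bnc1tr/tr over Bnc1+/+ ovaries. The targeted gene Bnc1 was at 13.1 to 13.9 CPM in Bnc1+/+ and at 11.5 to 18.7 CPM in Bnc1tr/tr ovaries, and gene counts do not show whether its reads carry the deletion.

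Cells keep calcium in the ER at a far higher concentration than in the cytosol. Hormone receptors coupled to Gq activate phospholipase C, which makes IP3, and IP3 opens the IP3 receptors. Ryanodine receptors are the related, larger channels, best known from muscle, where Ryr1 serves skeletal muscle and Ryr2 the heart. SERCA pumps return calcium to the store. In the ovary, Itpr1 is known for the calcium oscillations of the fertilized egg, and prostaglandin F2 alpha acts on luteal cells through Gq.

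The part of the coding sequence that the 6 channels have in common is shown first, because it makes clear how the genes resemble and differ from each other. Each line is 60 bases of the longest open reading frame in GENCODE M21 transcripts (GRCm38), and the capitals mark the codons of the selectivity filter, 3 glycines, then isoleucine or valine, then glycine and aspartate.
Ryr1: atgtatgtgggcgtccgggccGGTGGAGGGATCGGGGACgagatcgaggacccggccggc
Ryr2: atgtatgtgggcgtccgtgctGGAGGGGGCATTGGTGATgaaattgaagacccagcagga
Ryr3: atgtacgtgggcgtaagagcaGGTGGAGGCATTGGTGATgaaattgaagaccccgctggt
Itpr1: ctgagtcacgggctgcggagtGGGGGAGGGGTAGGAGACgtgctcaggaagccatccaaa
Itpr2: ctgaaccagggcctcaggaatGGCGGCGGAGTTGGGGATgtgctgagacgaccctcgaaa
Itpr3: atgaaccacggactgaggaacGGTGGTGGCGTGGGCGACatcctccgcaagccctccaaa
The 20 codons encode the same amino acids in all 3 ryanodine receptors, although only 46 of the 60 bases are the same in Ryr1 and Ryr2. Between any pair of IP3 receptors 16 of the 20 amino acids match, and between Ryr1 and Itpr2 8 match. The longest identical run between the coding sequences of Ryr1 and Ryr2 was 35 bases. None of the 28 pairs among the 8 genes shared a run of 50 bases.

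All 8 genes passed the filter on low counts. Of the 19423 genes tested across the whole table with edgeR's quasi-likelihood test, 7.06% were differentially expressed genes (DEGs, adjusted p under 0.05), 2.88% higher and 4.19% lower in Bnc1tr/tr ovaries. Of the 8 genes here, 2 were DEGs, Ryr1 and Itpr2, both lower in Bnc1tr/tr ovaries. The values of the genotypes did not overlap for 4 of the 8, against 30.8% of all genes tested. The median log2 fold change was -0.19 over the 8 genes and 0.018 over all genes tested. Because these genes were chosen with the comparison known, nothing is read from these counts.

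**Figure D1:**
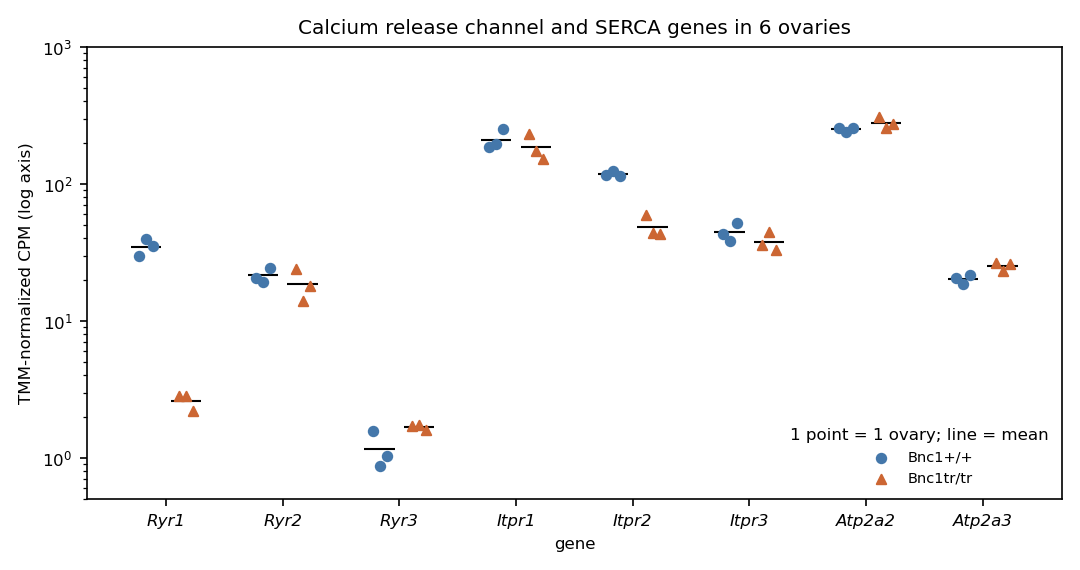
TMM-normalized CPM (log axis) of the 8 genes in each ovary, circles for Bnc1+/+ and triangles for Bnc1tr/tr, with a line at the mean of each genotype. Ryr1 lies at 29.6 to 39.8 CPM in Bnc1+/+ and at 2.19 to 2.81 CPM in Bnc1tr/tr ovaries, and Itpr2 is the other gene with a wide gap.

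Ryr1, the ryanodine receptor of skeletal muscle, had the widest gap of the 8. It was at 29.6, 39.8 and 35.4 CPM in Bnc1+/+ replicates 1, 4 and 7 and at 2.81, 2.81 and 2.19 CPM in Bnc1tr/tr replicates 1, 2 and 3. The means were 34.9 ± 5.14 and 2.60 ± 0.361 CPM (SD, n = 3 each), a 13.4-fold difference. The log2 fold change was -3.75 with a standard error of 0.17. Every Bnc1tr/tr ovary was thus far below every Bnc1+/+ ovary, and the Bnc1tr/tr values rested on 62 to 79 reads per ovary against 796 to 1319. Among the 774 DEGs that were lower in Bnc1tr/tr and had a mean of at least 1 CPM, Ryr1 ranked 15 by the size of its fall.

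Ryr2 and Ryr3 had no such gap. Ryr2, the cardiac form, was at 20.7, 19.3 and 24.5 CPM in Bnc1+/+ and at 23.9, 14.1 and 17.9 CPM in Bnc1tr/tr ovaries. The genotypes overlapped, with a log2 fold change of -0.20 (95% interval -0.58 to 0.17). Ryr3, a form with wide but low expression, was at 1.56, 0.876 and 1.03 CPM in Bnc1+/+ and at 1.71, 1.73 and 1.59 CPM in Bnc1tr/tr ovaries. Those values came from 29 to 48 reads per ovary. The Bnc1tr/tr values lay just above the highest Bnc1+/+ value, and the log2 fold change of 0.54 had a standard error of 0.28.

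Itpr2, an IP3 receptor with high affinity for IP3, was the other DEG. It was at 116, 125 and 115 CPM in Bnc1+/+ and at 58.9, 43.8 and 43.1 CPM in Bnc1tr/tr ovaries. The means were 119 ± 5.29 and 48.6 ± 8.97 CPM (SD, n = 3 each), 2.44-fold apart, and the log2 fold change was -1.29 (standard error 0.13). The highest Bnc1tr/tr ovary was well below the lowest Bnc1+/+ ovary.

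Itpr1 and Itpr3 overlapped between the genotypes. Itpr1, the receptor of the egg and of many neurons, was at 185, 195 and 251 CPM in Bnc1+/+ and at 232, 174 and 151 CPM in Bnc1tr/tr ovaries. The 95% interval of its log2 fold change of -0.18 reached from -0.53 to 0.17. Itpr3, common in epithelia, was at 43.0, 38.3 and 51.7 CPM in Bnc1+/+ and at 35.8, 44.7 and 33.1 CPM in Bnc1tr/tr ovaries. The 95% interval of its log2 fold change of -0.23 reached from -0.52 to 0.064.

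Neither pump gene was a DEG, and both had a positive log2 fold change. Atp2a2, the pump of the heart and of most other tissues, was at 256, 241 and 256 CPM in Bnc1+/+ and at 311, 255 and 275 CPM in Bnc1tr/tr ovaries. The log2 fold change of 0.16 had a 95% interval from -0.026 to 0.35, and replicate 2 of Bnc1tr/tr lay among the Bnc1+/+ values. Atp2a3, known from blood cells, endothelium and epithelia, was at 20.4, 18.6 and 21.6 CPM in Bnc1+/+ and at 26.6, 23.1 and 26.1 CPM in Bnc1tr/tr ovaries. The values did not overlap, and the log2 fold change was 0.32 (standard error 0.10). Its 95% interval, not adjusted for the number of genes, reached from 0.12 to 0.52.

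**Figure D2:**
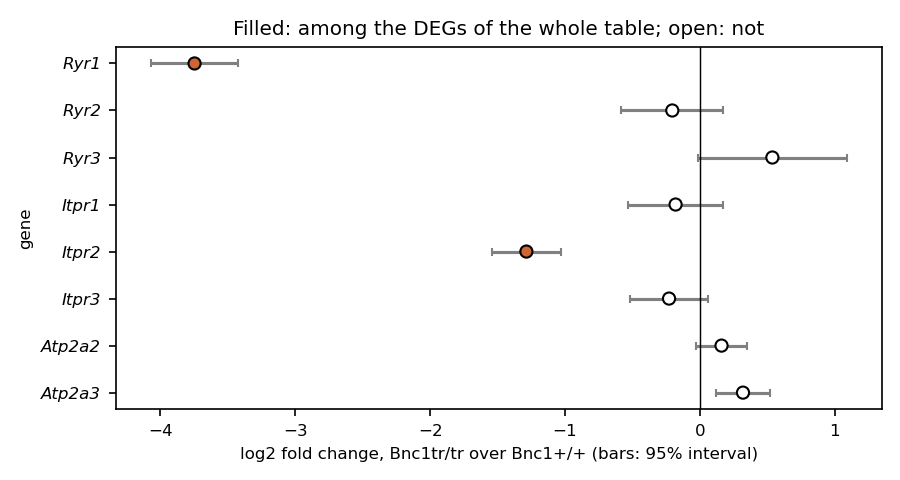
Log2 fold change of each gene, Bnc1tr/tr over Bnc1+/+, with bars for the 95% interval; filled points are DEGs of the whole table. Ryr1 at -3.75 and Itpr2 at -1.29 are filled, and the other 6 genes lie between -0.23 and 0.54.

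Whole ovaries mix many cell types, and fewer cells of a type cannot be told apart from less RNA per cell in these samples. Markers of the corpus luteum were lower in Bnc1tr/tr ovaries, as were Ryr1 and Itpr2. Of 8 luteal markers tested, 7 were DEGs and all 7 were lower, with a list median of -1.69, and Akr1c18 did not pass. Star, which carries cholesterol into mitochondria, had a log2 fold change of -2.23, and Cyp11a1, the first enzyme of steroid synthesis, one of -1.52. The summed level of the 8 luteal markers was 23236 to 27828 CPM in Bnc1+/+ and 7275 to 12615 CPM in Bnc1tr/tr ovaries. Cyp11a1, at means of 10158 and 3547 CPM, and Hsd3b1, at 8430 and 5114 CPM, made up most of that sum. The sum therefore mainly follows these steroid synthesis genes. Within the Bnc1tr/tr ovaries the lowest luteal sum, in replicate 1, went with 2.81 CPM of Ryr1 and 58.9 CPM of Itpr2. These were the highest value of each gene in that genotype or level with it. In Bnc1+/+ ovaries the sum and Ryr1 had the same order, lowest in replicate 1 (29.6 CPM of Ryr1) and highest in replicate 4 (39.8 CPM). Itpr2 was highest in replicate 4 too, at 125 CPM, and was at 116 and 115 CPM in replicates 1 and 7. The part of luteal tissue in the differences of Ryr1, Itpr2 and the calcium handling genes described below was not tested.

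**Figure D3:**
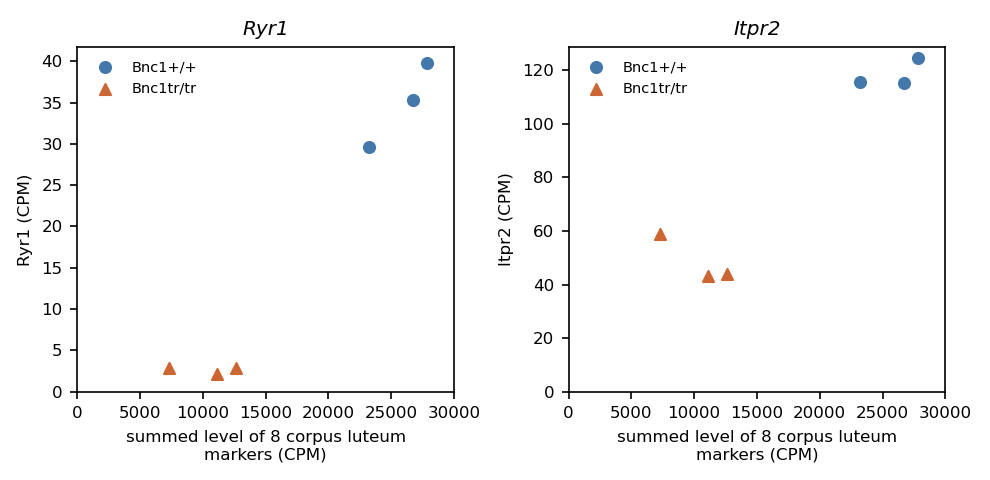
CPM of Ryr1 (left) and Itpr2 (right) against the summed level of 8 corpus luteum markers in CPM, 1 point per ovary. Cyp11a1 and Hsd3b1 make up most of the summed level. The 3 Bnc1+/+ ovaries lie at the upper right and the 3 Bnc1tr/tr ovaries at the lower left in both panels.

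Skeletal muscle, the tissue best known for Ryr1, was checked by its own markers. The summed level of 10 skeletal muscle markers was 7.59 to 9.93 CPM in Bnc1+/+ and 7.72 to 10.1 CPM in Bnc1tr/tr ovaries, and 4 of them were below the filter, with at most 1 read of Myh4 in any Bnc1+/+ ovary. The sums overlapped, but single markers differed in direction. Mylpf, a myosin light chain and the most abundant of the list, was at 4.31, 3.93 and 3.69 CPM in Bnc1+/+ and at 2.03, 3.27 and 2.26 CPM in Bnc1tr/tr ovaries, without overlap, with a log2 fold change of -0.66 that did not pass (edgeR with Benjamini-Hochberg adjustment, adjusted p = 0.139). Myh2, a fast myosin heavy chain, was the 1 call of the 6 tested and was higher. Of these 6, 2 had an unadjusted p under 0.05, and DESeq2 called 1. The part of skeletal muscle in the difference of Ryr1 was not tested. Of the other marker lists, 6 cardiac genes summed to 172 to 232 and 291 to 392 CPM in the genotypes. Of the 4 tested, 1 was called and was higher, 3 had an unadjusted p under 0.05, and DESeq2 called 3. Tnni3 made up most of that sum, at means of 178 and 276 CPM. The 8 neuron genes summed to 36.9 to 38.9 and 44.6 to 50.2 CPM, with no call of 5 and a list median of -0.014. Tubb3 made up most of the neuron sum, at means of 28.8 and 36.8 CPM. Sums overlapped for smooth muscle (1898 to 2097 and 1947 to 2181 CPM, no call of 8), platelets (10.2 to 12.7 and 9.67 to 16.9 CPM, no call of 3) and leukocytes (68.6 to 74.7 and 48.9 to 89.3 CPM, no call of 8). At an unadjusted p under 0.05 the neuron, smooth muscle, platelet and leukocyte lists had 2, 2, 1 and 0 genes, and DESeq2 called 1, 1, 0 and 0. Oocyte markers summed to 508 to 665 and 634 to 970 CPM (4 of 10 higher), and granulosa markers to 3231 to 4247 and 3615 to 5749 CPM (1 of 9 higher). Oviduct markers reached 578 CPM in Bnc1tr/tr replicate 3 and 171 CPM in Bnc1+/+ replicate 1, against 45.3 to 53.5 CPM in the other ovaries (no call of 8 by edgeR, 2 at an unadjusted p under 0.05, 1 by DESeq2). The log2 fold change without Bnc1tr/tr replicate 3 was -3.63 for Ryr1 and -1.21 for Itpr2, and without Bnc1+/+ replicate 1 it was -3.86 and -1.31.

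Levels of different genes were compared per kilobase of exon, since the transcripts differ in length. Over all 6 ovaries Atp2a2 was the highest at 43.7 ± 4.04 CPM per kb (SD, n = 6), followed by Itpr1 at 10.8 ± 2.04 CPM per kb (SD, n = 6), and the ranges of these genes did not overlap. Itpr2 at 5.65, Itpr3 at 4.56 and Atp2a3 at 4.31 CPM per kb came next, with overlapping ranges. Itpr1 was above Itpr2 in 6 of 6 ovaries although their ranges overlapped. Ryr1 at 0.859 and Ryr2 at 0.697 CPM per kb followed, in an order that held in only 3 of the 6 ovaries. Ryr3 was the lowest, at 0.0746 ± 0.0193 CPM per kb (SD, n = 6). The pump and IP3 receptor genes thus stood above the ryanodine receptor genes in every ovary.

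Within Bnc1+/+ ovaries the order was Atp2a2, Itpr1, Itpr2, Itpr3, Atp2a3, Ryr1, Ryr2 and Ryr3, and no neighbours in it overlapped. In Bnc1tr/tr ovaries Itpr2 stood behind Atp2a3 and Itpr3, at 3.28 ± 0.606 CPM per kb (SD, n = 3), with overlap between Atp2a3 and Itpr3 and between Itpr3 and Itpr2. Ryr1 there was below Ryr2, at 0.119 ± 0.0165 CPM per kb (SD, n = 3), and close to Ryr3 at 0.0883 ± 0.00412 CPM per kb (SD, n = 3). With the length of the longest transcript in place of all exons, Itpr1 was at 20.1 CPM per kb over the 6 ovaries, since that transcript has 9870 bases against 18319 bases of exon in all. With that length Atp2a3, at 4.94 CPM per kb, stood above Itpr3, at 4.57 CPM per kb, over the 6 ovaries, and the ranges of Itpr3 and Atp2a3 overlapped in Bnc1+/+ ovaries.

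The make-up of each family was read from the same values per kb. Ryr1 made up 62.9%, 71.8% and 64.2% of the ryanodine receptor sum in Bnc1+/+ replicates 1, 4 and 7, and 12.3%, 18.1% and 12.4% in Bnc1tr/tr replicates 1, 2 and 3. Ryr2 took the larger part in every Bnc1tr/tr ovary, 69.0% to 79.2%, although its own CPM overlapped between the genotypes. The summed level of the 3 ryanodine receptor genes was 2.41 ± 0.218 CPM per kb in Bnc1+/+ and 0.855 ± 0.176 CPM per kb in Bnc1tr/tr ovaries (SD, n = 3 each).

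Itpr2 made up 28.6% to 36.1% of the IP3 receptor sum in Bnc1+/+ and 19.3%, 17% and 19.6% in Bnc1tr/tr replicates 1, 2 and 3. Itpr1 held the largest part in all 6 ovaries, between 44.5% and 61.5%. The summed level of the 3 IP3 receptor genes was 24.4 ± 2.47 CPM per kb in Bnc1+/+ and 17.6 ± 2.90 CPM per kb in Bnc1tr/tr ovaries (SD, n = 3 each). Atp2a2 made up 90.2% to 91.8% of the sum of the 2 pump genes in every ovary.

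**Figure D4:**
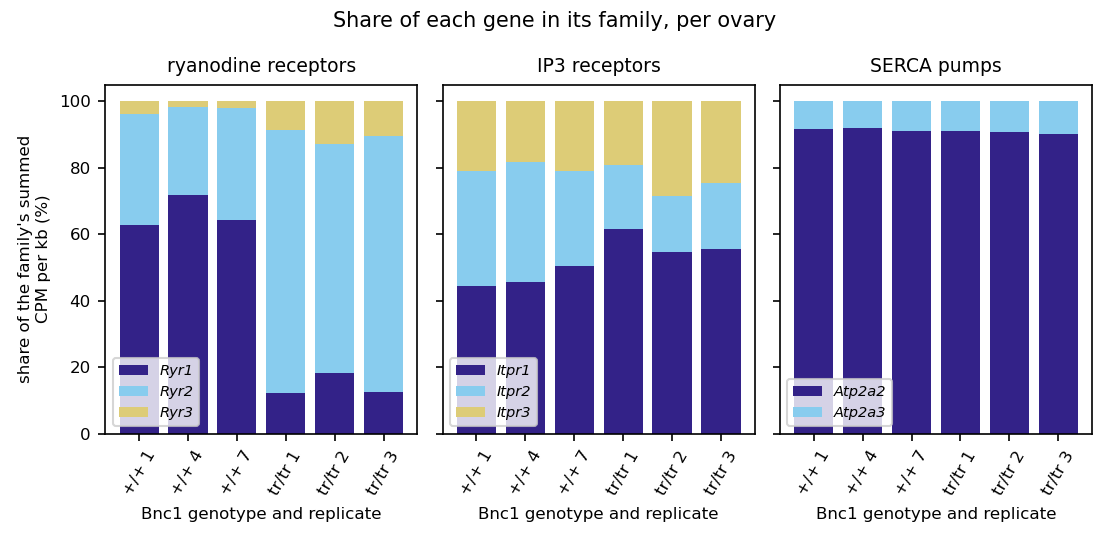
Stacked bars of the share (%) of each gene in the summed CPM per kb of its family, 1 bar per ovary. Ryr1 is the largest part of the ryanodine receptors in the 3 Bnc1+/+ ovaries and Ryr2 in the 3 Bnc1tr/tr ovaries, while Atp2a2 stays above 90% of the pumps.

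The loci of Ryr1 and Itpr2 were examined because these were the DEGs. Ryr1 (ENSMUSG00000030592.18) is transcribed from the minus strand at chr7:29003344-29125179 (GRCm38), and its longest transcript has 106 exons and 15358 bases. Itpr2 (ENSMUSG00000030287.15) is transcribed from the minus strand at chr6:146108299-146502223. No exon of another annotated gene overlaps an exon of Itpr2, and 914 of the 21838 exon bases of Ryr1 overlap exons of Gm26604 or Gm44408. Whether strand was used in counting is not given in the sources used here, so reads there could belong to either gene. Map4k1, whose 3′ end is 65 bases from that of Ryr1, was at 6.93 CPM in Bnc1+/+ with a log2 fold change of 0.010 (edgeR with Benjamini-Hochberg adjustment, adjusted p = 0.978). Rasgrp4, on the other side at 9672 bases, had a log2 fold change of -0.12 (adjusted p = 0.758 from the same test). Of the 16 nearest tested protein-coding neighbours of the 8 genes, Mtr beside Ryr2 was the single DEG, with a log2 fold change of 0.36 (edgeR with Benjamini-Hochberg adjustment, adjusted p = 0.0484).

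The promoters of both genes are printed because they were the 2 genes that were lower together. Each line is the 250 bases before the RefSeq start, at chr7:29125152-29125401 for Ryr1 and chr6:146502224-146502473 for Itpr2, both on the minus strand of GRCm38.p6. Capitals mark matches, on either strand, to CCAAT (or ATTGG) and to GGGCGG (or CCGCCC), the letters known as the CCAAT box and the GC box.
Ryr1: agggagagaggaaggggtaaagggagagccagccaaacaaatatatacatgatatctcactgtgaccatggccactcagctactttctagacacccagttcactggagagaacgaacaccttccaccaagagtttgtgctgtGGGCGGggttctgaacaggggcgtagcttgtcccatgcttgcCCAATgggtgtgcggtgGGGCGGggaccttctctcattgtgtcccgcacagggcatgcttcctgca
Itpr2: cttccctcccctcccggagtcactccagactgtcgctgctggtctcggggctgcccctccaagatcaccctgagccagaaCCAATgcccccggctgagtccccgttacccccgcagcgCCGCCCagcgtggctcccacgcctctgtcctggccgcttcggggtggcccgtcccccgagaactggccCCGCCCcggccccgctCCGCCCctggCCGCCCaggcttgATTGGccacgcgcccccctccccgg
Ryr1 held 1 match to CCAAT and 2 to GGGCGG, and Itpr2 held 2 and 4. Promoters of 5 of the 8 genes were in the RefSeq table, and Ryr2, Itpr3 and Atp2a3 had no CCAAT in this window. GGGCGG was also found in that of Itpr3, with 1 match, and of Atp2a3, with 5, and not in that of Ryr2. Of all 32851 promoters in the table, 33.8% held CCAAT and 32.7% held GGGCGG on either strand. TATAAA, present in 12.4% of all promoters, was found in none of the 5, and AGGTCA, present in 4607 of all promoters, occurred among the 5 in that of Ryr2 alone. CANNTG, the E-box letters, was in 66.2% of all promoters and in those of Ryr2 and Itpr3. GC content was 54.8% for Ryr1 and 74.4% for Itpr2, against a median of 52.4%. These matches describe the letters and do not show binding.

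The rest of the calcium machinery was described with 12 lists holding 182 genes, none of them among the 8. Of these, 162 were tested, and 20 were lower and 3 higher in Bnc1tr/tr ovaries. That is 12.3% lower and 1.85% higher, against 4.19% and 2.88% of all genes tested. The lists were drawn up with earlier results of these data known, so nothing is read from these shares. The same holds for the count of each list below, which stands beside 7.06% DEGs among all genes tested. Their median log2 fold change was -0.025, close to the 0.018 of all genes, with 86 of the 162 values negative. The count of lower genes was 6 without Bnc1+/+ replicate 4, 9 without Bnc1+/+ replicate 7 and 10 without Bnc1tr/tr replicate 3. With library size as the only scaling, which placed the median of all genes at 0.12, there were 17 lower and 9 higher, so 65.4% of the calls were lower in place of 87.0%. Adjusted p values below come from edgeR and were adjusted by Benjamini-Hochberg over all genes tested.

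**Figure D5:**
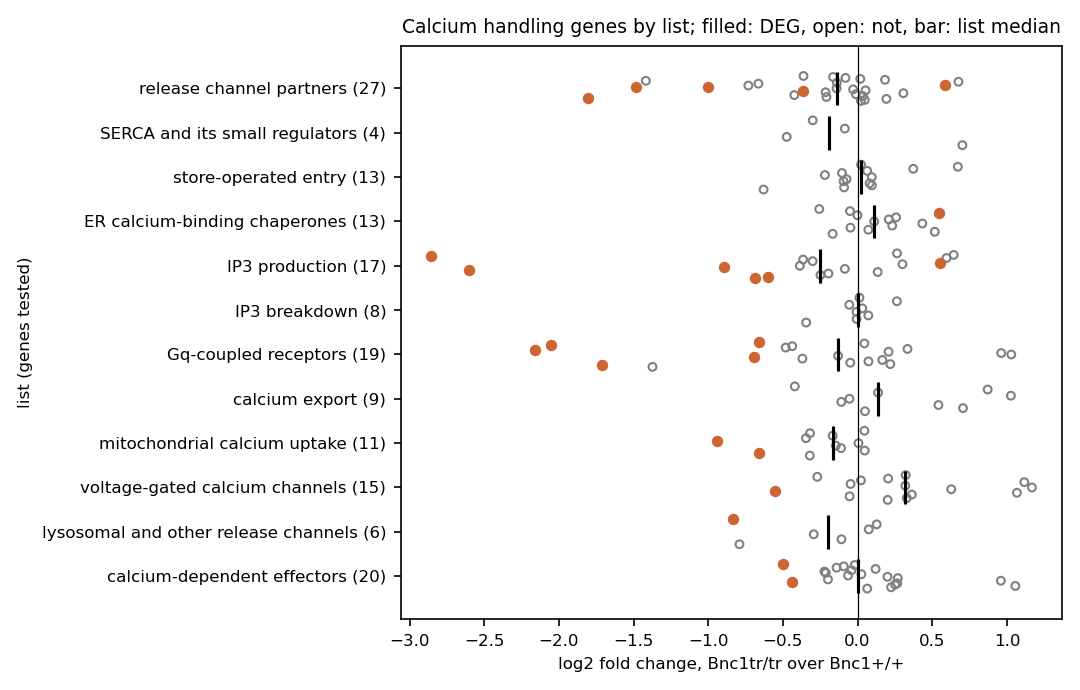
Log2 fold change (Bnc1tr/tr over Bnc1+/+) of each tested gene by list; filled points are DEGs, open points are not, and the black bar is the list's median. The filled points of IP3 production and Gq-coupled receptors reach furthest to the left, Plch2 at -2.86 and Oxtr at -2.16.

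Genes upstream of the IP3 receptors were in 2 lists, for IP3 production and for Gq-coupled receptors. Of 17 tested genes for IP3 production, 5 were lower and 1 was higher, with a list median of -0.25. That is 35.3% called, against 7.06% of all genes tested. Plch2, a phospholipase C of the eta class, was at 94.9, 134 and 186 CPM in Bnc1+/+ and at 21.7, 16.7 and 18.8 CPM in Bnc1tr/tr ovaries. It fell by 2.86 on the log2 scale (standard error 0.24, edgeR adjusted p = 0.0017). Plcb2, a phospholipase C activated by G proteins, was at 69.0, 79.1 and 66.6 CPM in Bnc1+/+ and at 6.65, 14.5 and 14.2 CPM in Bnc1tr/tr ovaries. It fell by 2.60 on the log2 scale (standard error 0.27, edgeR adjusted p = 0.00299). For both genes all Bnc1tr/tr ovaries lay far under all Bnc1+/+ ovaries. Plcb4, of the same class as Plcb2, fell from 24.6 ± 0.836 to 13.2 ± 2.16 CPM (SD, n = 3 each; edgeR adjusted p = 0.00874). Without Bnc1+/+ replicate 4 the list had 3 lower genes and no higher one, and the call of Plcb4 was lost.

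Of 19 tested receptors that signal through Gq, 5 were lower (26.3%), with a list median of -0.13 and 8 positive values. Oxtr, the oxytocin receptor, was at 342, 372 and 254 CPM in Bnc1+/+ and at 32.9, 94.9 and 88.7 CPM in Bnc1tr/tr ovaries. It fell by 2.16 on the log2 scale (standard error 0.37, edgeR adjusted p = 0.0160). Ptgfr, the prostaglandin F2 alpha receptor, was at 119, 244 and 424 CPM in Bnc1+/+ and at 65.2, 81.9 and 42.5 CPM in Bnc1tr/tr ovaries. Its Bnc1+/+ ovaries were widely spread, and it fell by 2.05 on the log2 scale (standard error 0.44, edgeR adjusted p = 0.0349). Adra1d, an alpha-1 adrenergic receptor, fell from 15.4 ± 1.65 to 4.71 ± 2.37 CPM (SD, n = 3 each; edgeR adjusted p = 0.0330). The list had 1 lower gene without Bnc1+/+ replicate 4, and 2 without either Bnc1+/+ replicate 7 or Bnc1tr/tr replicate 3. The calls of Ptgfr and Adra1d were lost without any 1 of these 3 ovaries, and that of Oxtr without Bnc1+/+ replicate 4.

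Proteins that bind the release channels were a mixed group. Of 27 tested, 4 were lower and 1 was higher, with a list median of -0.14. Cabp1, a calcium-binding protein that inhibits IP3 receptors, was at 29.6, 34.7 and 27.5 CPM in Bnc1+/+ and at 6.44, 9.70 and 10.2 CPM in Bnc1tr/tr ovaries. It fell by 1.80 on the log2 scale (standard error 0.19, edgeR adjusted p = 0.00284). Homer2 and Homer3, scaffold proteins that tie IP3 receptors to surface receptors, were lower, from 30.6 ± 15.6 to 11.0 ± 1.68 CPM and from 189 ± 20.6 to 94.5 ± 27.2 CPM (SD, n = 3 each; edgeR adjusted p = 0.0483 and 0.0328). Homer2 was spread from 15.5 to 46.6 CPM over the Bnc1+/+ ovaries, and it passed the threshold in 5 of 13 alternatives. The list had 1 lower gene without Bnc1+/+ replicate 4, Bnc1+/+ replicate 7 or Bnc1tr/tr replicate 3, and the call of Homer3 was lost each time. The other 2 calls, named after their values were seen, were Fkbp1a, the immunophilin bound to ryanodine receptors, at -0.37 and Itprip at 0.58. Casq1 and Trdn, partners of Ryr1 in skeletal muscle, were below the count filter. Cacna1s, the voltage sensor coupled to Ryr1 in skeletal muscle, was at 3.23, 2.87 and 2.90 CPM in Bnc1+/+ and at 7.65, 3.46 and 9.09 CPM in Bnc1tr/tr ovaries and did not pass (edgeR adjusted p = 0.0808).

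The lists on refilling and clearing calcium are small, and 7.06% of all genes tested were DEGs. In 4 of them edgeR called 0 genes. These were the 13 genes of store-operated entry (Stim1, Orai1 and their partners), 9 pumps and exchangers of calcium export, 8 genes of IP3 breakdown, and 4 tested genes of SERCA and its small regulators. Unadjusted p values under 0.05 were found for 2, 3, 1 and 1 of their genes, and DESeq2 called 0, 1, 1 and 0, limma-voom 0 in each. Atp2a1, the third SERCA gene, was at 1.10 and 0.791 CPM in the genotypes (edgeR adjusted p = 0.327). Stim1, the ER calcium sensor, had a log2 fold change of -0.094 (edgeR adjusted p = 0.650). Of 13 genes listed for ER calcium-binding chaperones and related proteins, Rcn3 was the 1 call (7.69%). It was higher by 0.55 on the log2 scale (edgeR adjusted p = 0.0336). That call was lost without Bnc1+/+ replicate 4 or 7 or Bnc1tr/tr replicate 2 or 3. Of the 13 genes, 6 had an unadjusted p under 0.05, and DESeq2 called 2 and limma-voom 1.

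The remaining lists cover mitochondrial calcium uptake and exchange, other channels and downstream effectors. Slc8b1, the mitochondrial sodium-calcium exchanger, and Mcu, the pore of the uniporter, were the 2 calls among 11 tested genes. Slc8b1 fell from 45.7 ± 3.48 to 23.8 ± 5.16 CPM (SD, n = 3 each; edgeR adjusted p = 0.0147). Mcu was at 37.1, 40.7 and 40.3 CPM in Bnc1+/+ and at 21.8, 27.8 and 25.1 CPM in Bnc1tr/tr ovaries (edgeR adjusted p = 0.0141). Tpcn2, a lysosomal calcium channel, was the 1 call among the 6 tested genes listed for lysosomal and other release channels and the related gene Cd38. It fell by 0.83 on the log2 scale (edgeR adjusted p = 0.0112). Cacna1h was the 1 call among 15 voltage-gated channel subunits and fell by 0.55 on the log2 scale (edgeR adjusted p = 0.0151). The list median of that group was 0.32. Rcan3, a regulator of calcineurin, and Camk2g, a calmodulin-dependent kinase, were the 2 calls among 20 effectors, falling by 0.50 and 0.44 on the log2 scale (edgeR adjusted p = 0.0195 and 0.0280). Without Bnc1+/+ replicate 4 the calls of Slc8b1, Mcu, Cacna1h, Rcan3 and Camk2g were all lost, and without Bnc1tr/tr replicate 3 all of them except that of Rcan3. Without Bnc1+/+ replicate 7 that of Slc8b1 was kept and the other 4 were lost, and without Bnc1+/+ replicate 1 those of Slc8b1, Rcan3 and Camk2g were lost.

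Among 16752 other genes with a mean of at least 1 CPM, those most like Ryr1 across the 6 ovaries were Atp11a, Entpd1 and Lhcgr, with Pearson's r of log2 CPM of at least 0.998. Lhcgr, the luteinizing hormone receptor and a luteal marker, was at 691 ± 132 CPM in Bnc1+/+ and 85.9 ± 6.90 CPM in Bnc1tr/tr ovaries (SD, n = 3 each). For Itpr2 they were Gnb1, Nf2 and Elp6, with r from 0.996 to 0.998. Nf2, a Hippo pathway gene, was at 155 ± 2.60 and 122 ± 4.06 CPM (SD, n = 3 each). The size of a change does not enter r. Log2 fold changes were -1.06, -0.55 and -3.01 for Atp11a, Entpd1 and Lhcgr, against -3.75 for Ryr1. For Gnb1, Nf2 and Elp6 they were -0.32, -0.34 and -0.32, against -1.29 for Itpr2. These correlations rest on the same 6 libraries in 2 genotypes and are descriptions only.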

How the data were processed

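Whole-ovary RNA of 3 Bnc1+/+ and 3 Bnc1tr/tr samples was grouped by the genotype in the labels. The authors deposited raw counts of reads per gene, whole numbers without normalization. The submitters' processing notes name mm10, and also the pig build Sscrofa10.2; aligner, counter and annotation are not given in the sources used here. Genes were filtered with filterByExpr (minimum count 10), scaled by TMM and tested two-sided by quasi-likelihood in edgeR 4.0.16 under R 4.3.3; p values were adjusted over all tested genes (Benjamini-Hochberg, threshold 0.05). Standard errors were the log2 fold change divided by the square root of F, and 95% intervals took them as normal errors. Littermates were compared per the study's methods, but no label ties a sample to an animal or litter. The p values therefore set the genotype difference against the variation between samples of the same genotype. Lengths and positions came from GENCODE M21 (GRCm38). Of the 182 listed pathway genes, 180 were found, 4 of them under an older symbol matched through RefSeq synonyms. The script was tested on simulated data.

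The members and lists were chosen with earlier results of these data known. Named were the 8 members, up to 3 DEGs per pathway list with the largest change and a mean of at least 1 CPM, and the 3 genes most like each member DEG. Neighbouring genes, luteal markers, Atp2a1, Stim1, Cacna1s, Casq1, Trdn, Mylpf and Myh2 were named outside this rule, after their values were seen. Alternatives were DESeq2 size factors or library size, no filter, at least 10 counts in every ovary, DESeq2 1.42.0, limma-voom (limma 3.58.1), robust edgeR and leaving out each ovary. The protein sequences planned for display were not used here; coding sequence of the 6 channels was shown instead, and that of the pumps is not reported here.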

Additional observations from a re-analysis of the deposited data

How the results depend on the processing

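Across 13 alternatives, the 8 genes kept their direction and their side of the threshold, and Ryr1 and Itpr2 were the 2 DEGs among them each time. The 8 genes were chosen with this difference known, and every alternative used counts of the same 6 ovaries. This stability therefore describes the processing only and is no further evidence for a difference. The log2 fold change of Ryr1 ranged from -3.86 to -3.63 and that of Itpr2 from -1.45 to -1.19. DESeq2 called 2420 genes in all and 7 higher calcium handling genes, and library size alone gave 9 higher. When each ovary was left out, the count of all DEGs ranged from 320 to 1282, that of lower calcium handling genes from 6 to 18 and that of higher ones from 0 to 6; the cause was not tested. Of the 16 other named genes, 4 (Cabp1, Plch2, Plcb2 and Tpcn2) passed under every alternative and 12 lost the call under at least 1, all in the same direction. With the longest transcript as length, Itpr1 was at 20.1 CPM per kb against 10.8. Depth limits Ryr3, with 29 to 48 reads per ovary. No paired analysis was possible because the genotypes have just replicate 1 in common, and nothing ties it to a litter.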
